A study of Mus musculus with 10 samples.

Results

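The genes described here encode granins and a set of membrane and cargo proteins of the insulin granule. The 9 genes are Chga, Chgb, Scg2, Scg3, Vgf, Ptprn, Ptprn2, Slc18a2 and Ucn3. They were chosen by gene symbol, and all 9 symbols were found once each among the 27665 genes of the deposited table. RNA of pancreatic islets came from 10 male C57BL/6J mice that were 8 to 10 weeks of age and received either a western diet or standard chow over 4 weeks, 5 mice to each diet and 1 library to each mouse. All mice were of the same inbred strain, and no allele or agent other than the diet is named. Per the labels the chow mice shared cage 3, and the western diet mice came from cage 4 except for 1 from cage 2. Diet and cage therefore cannot be told apart.

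Peptide hormones are stored in dense-core secretory granules, which bud from the trans-Golgi network, mature by acidification and cleavage of their cargo, and release it by exocytosis. Granins are acidic, calcium-binding proteins that aggregate with hormones in the trans-Golgi network and help to sort them into these granules, and several are themselves cut into active peptides. The granule membrane carries receptor phosphatase-like proteins and transporters. Beta cells are packed with such granules and are known for high levels of granin transcripts.

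The promoters of the members come first, because granin genes are textbook targets of the cAMP response element (CRE), the site of the transcription factor CREB, and of repression by REST through the RE1 element. RefSeq promoters (GRCm38.p6, 250 bases before to 50 after each start) were found for 8 of the 9 genes, Ptprn with a pair of starts, and none for Vgf. The full CRE TGACGTCA, which reads the same on both strands, lay in the promoters of Scg2, Chgb and Slc18a2, 3 of these 8 genes. It lay in 588 of 32851 promoters of all genes (1.79%), or 2.03% when counted by gene symbol. Its shorter form TGACG, searched on both strands and contained in every full site, lay in 6 of the 8 (Chga, Chgb, Scg2, Scg3, Ptprn and Slc18a2). This form lay in 20.8% of all promoters, or 23% by gene symbol. These matches are a description of letters in a window, not of binding. Only exact matches were counted, so the near match of Chga to the full CRE counts here as the shorter form. The sites shown are those of the 4 most abundant granins among the 9 genes, 30 bases each on the strand of the gene. The CRE or its shorter form is in capitals.

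Scg2 (chr1:79440076-79440105, minus strand, match from base -68): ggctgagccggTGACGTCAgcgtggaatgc
Chgb (chr2:132781559-132781588, plus strand, match from base -72): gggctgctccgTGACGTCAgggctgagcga
Scg3 (chr9:75684069-75684098, minus strand, match from base -30): gcgctgggtcgcTGACGccatcctcacgcc
Chga (chr12:102554885-102554914, plus strand, match from base -44): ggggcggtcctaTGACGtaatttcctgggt

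Positions are counted from the RefSeq start, with -1 as the base before it. The sites of Scg2 and Chgb lie inside the longer gene spans of the deposited table, and those of Scg3 and Chga lie outside them. The left arm of RE1, TTCAGCACC on either strand, was found in the promoters of Scg2 and Ptprn2. It was found in 0.371% of all promoters, or 0.433% by gene symbol. Both sites are shown because few promoters hold this arm, with its reverse complement in capitals.

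Scg2 (chr1:79440014-79440043, minus strand, match from base -7): ggagctgtccGGTGCTGAAacggcccgagc
Ptprn2 (chr12:116485723-116485752, plus strand, match from base 14 after the start): ggcgctgtccGGTGCTGAAgctcggccggc

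The right arm of RE1, GGACAGC on either strand, adjoined the left arm in both genes and was also found in Slc18a2. It was found in 6.56% of all promoters, or 7.59% by gene symbol. The transcript of Rest itself was low, with a mean CPM of 1.34 ± 0.353 under western diet against 1.75 ± 0.137 under chow (edgeR adjusted p = 0.309). CPM are read counts scaled to the size of the library. Means are printed ± SD over the 5 mice of a diet throughout, and log2 fold changes (western diet over chow) ± SE.

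Total counts were 16532518 to 23902681 per library. Beta cell markers dominated: 8 markers summed to 221886 to 255236 CPM under western diet and 214156 to 247848 under chow. Ins1 and Ins2 made up most of this sum, at means of 56577 and 177427 CPM under western diet and 52284 and 168735 under chow. Of the 8 markers 1 was called higher (G6pc2) and 2 lower (Slc2a2, Slc30a8). At an unadjusted p under 0.05 by edgeR the count was 1 higher and 4 lower, and the median log2 fold change was -0.19. The alpha, delta and PP cell markers held 0 called genes of 14, acinar markers 0 of 9 with sums from 668 to 5647 CPM, and immune markers 0 of 5. Of 6 duct markers 2 fell, Krt19 (log2 -2.64, edgeR adjusted p = 7.4e-04) and Muc1 (-1.01, 0.0305), while the list's sum was 285 to 303 CPM under western diet and 283 to 309 under chow. Of 6 stromal markers 1 fell, Pdgfrb (log2 -0.44, edgeR adjusted p = 0.0119), with sums of 116 to 147 and 117 to 231 CPM. Endothelial markers summed to 324 to 376 CPM under western diet and 378 to 417 under chow, without overlap, and 1 of 6 fell (Kdr). Neural and Schwann cell markers summed to 45.8 to 62.4 CPM under western diet and 62.4 to 87.0 under chow, 1 of 5 fell (Tubb3), and Sox10, which defines Schwann cells, ran from 0 to 1.34 CPM. The marker lists and a list of early response and heat shock genes were chosen with earlier results of these data known. Over all genes tested 5.27% were called higher and 5.5% lower. In the early response and heat shock list 13 of 13 genes fell. Its sum was 8950.1 to 11064 CPM under western diet and 16189.6 to 20038 under chow. In whole islets, fewer cells of a type and less RNA per cell cannot be told apart, and the part of these shifts in the results below was not tested.

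Per length, Chga was the most abundant member and Slc18a2 the least. The authors' FPKM, averaged over all 10 libraries, were 5047 for Chga, 3260.1 for Scg2, 552 for Scg3, 486 for Chgb, 314 for Ucn3, 138 for Ptprn, 113 for Ptprn2, 9.43 for Vgf and 0.443 for Slc18a2. Of the 8 neighbours in that order, only Scg3 and Chgb had library ranges that overlapped, at 494 to 617 and 442 to 519.9 FPKM. The largest step was 21.3-fold, between Vgf and Slc18a2. The 9 genes took 2.68% to 2.85% of a library's counts on western diet and 2.47% to 2.71% on chow.

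**Figure D1:**
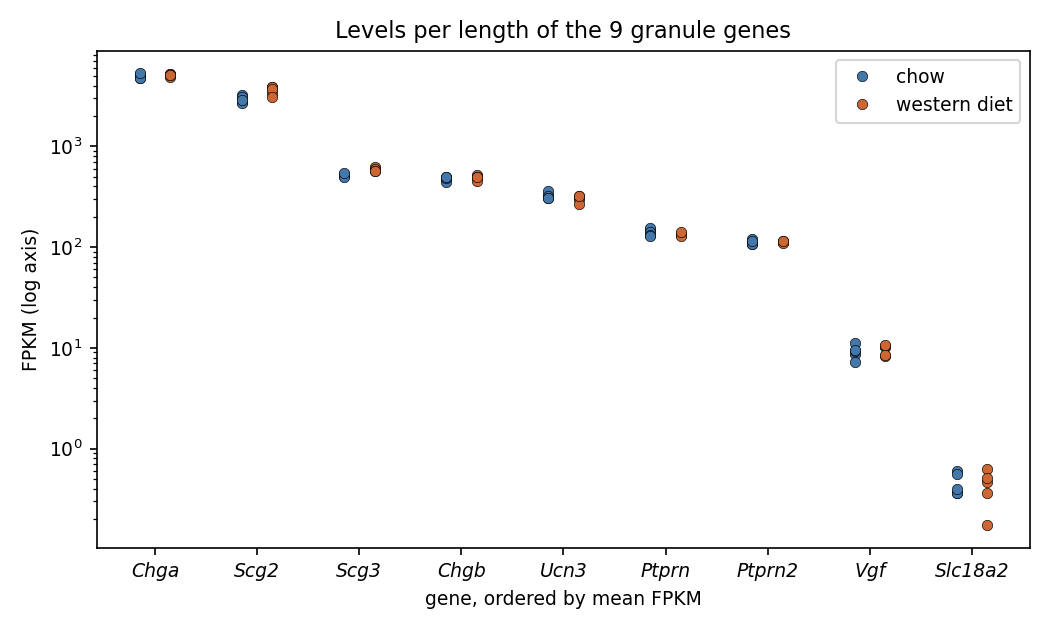
Level per length (FPKM, log axis) of each gene in each mouse, chow in blue and western diet in orange, genes ordered by their mean. Levels ran from 5047 FPKM for Chga to 0.443 for Slc18a2, and the library ranges of Scg3 and Chgb overlapped.

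On western diet 2 of the 9 genes rose, Scg2 and Scg3, and 0 fell (adjusted p under 0.05 by edgeR). Over all 15104 genes tested 10.8% were called, 5.27% as higher and 5.5% as lower. The count of 2 of 9 is read against that background, and nothing particular to these genes is drawn from it. At an unadjusted p under 0.05 the count was again 2 higher and 0 lower, and DESeq2 and limma-voom each gave 2 and 0. The median log2 fold change of the 9 genes was 0.031, beside 0.005 for all genes tested, and the median size of the change was 0.070 and 0.134. The genes tested were not matched to the 9 in level, so these sizes do not show that the 9 were steadier. Both calls held in each of 10 fits that left out 1 mouse.

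Scg2 (ENSMUSG00000050711, GRCm38 chromosome 1, 79434669 to 79440120) encodes secretogranin II, the precursor of the peptide secretoneurin. Its level was 9661, 8539.6, 9859 and 9257 CPM in western diet mice 1, 2, 5 and 4 of cage 4 and 7802 CPM in the mouse of cage 2. In chow mice 1 to 5 it was 6957, 8156, 6728, 7818 and 7302 CPM. All 4 mice of cage 4 lay above every chow mouse, while the mouse of cage 2 lay inside the chow range, so the diets overlapped. Means were 9024 ± 849 against 7392 ± 592 CPM, or 1.22-fold with a 95% interval of 1.11 to 1.34 (log2 0.29 ± 0.07, adjusted p = 0.0116 by edgeR). Without the cage 2 mouse the log2 fold change was 0.34 (edgeR adjusted p = 0.00235).

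Scg3 (ENSMUSG00000032181, chromosome 9, 75643189 to 75684056) encodes secretogranin III, which binds chromogranin A and the cholesterol-rich granule membrane. Its level was 1689.9, 1602, 1656 and 1575 CPM in western diet mice 1, 2, 5 and 4 of cage 4 and 1548 CPM in the mouse of cage 2. In chow mice 1 to 5 it was 1452, 1379.8, 1402, 1352 and 1479 CPM. Every western diet mouse lay above every chow mouse, a separation that 8.85% of all genes tested showed in one direction or the other. Means were 1614 ± 58.2 against 1413 ± 52.0 CPM, or 1.14-fold with a 95% interval of 1.07 to 1.22 (log2 0.19 ± 0.04, adjusted p = 0.0107 by edgeR). In the authors' deposited table the adjusted p was 7.0e-05 for Scg3 and 0.00116 for Scg2, and it ran from 0.432 to 0.921 for the other 7 genes. DESeq2 fitted here to the same counts gave adjusted p of 6.9e-05 for Scg3 and 0.00116 for Scg2. The deposited values are therefore not separate support.

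Chga, Chgb and Vgf, the other granins among the 9 genes, were not called. Chga (ENSMUSG00000021194, chromosome 12, 102554969 to 102565028) encodes chromogranin A, the precursor of pancreastatin and vasostatin. It stood at 14248, 14442, 13562 and 14123 CPM in cage 4 mice 1, 2, 5 and 4, at 13972 in the cage 2 mouse, and at 14342, 13837, 13032, 13081 and 14574 CPM in chow mice 1 to 5. The highest and the lowest libraries were both chow, and the western diet range lay within the chow range. The fold was 1.02, with a 95% interval of 0.96 to 1.09 (edgeR adjusted p = 0.705).

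Chgb (ENSMUSG00000027350, chromosome 2, 132781278 to 132795079) encodes chromogranin B, another granin cargo of the insulin granule. It stood at 1425, 1364, 1367 and 1244 CPM in cage 4 mice 1, 2, 5 and 4, at 1369 in the cage 2 mouse, and at 1302, 1352, 1209, 1341 and 1366 CPM in chow mice 1 to 5. The diets overlapped, and 3 western diet mice lay above the highest chow mouse. The fold was 1.03 (95% interval 0.96 to 1.11, edgeR adjusted p = 0.614). The promoters of Chgb and Scg2 both hold the full CRE shown above. The part of these sites in the diet differences was not tested, nor was the difference between these 2 genes.

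Vgf (ENSMUSG00000037428, chromosome 5, 137026392 to 137033351) encodes a precursor of several secreted peptides and is induced by nerve growth factor in neurons. It was low and spread widely, at 24.9 to 32.1 CPM on western diet and 21.8 to 32.9 on chow, with 474 to 766 reads per library. The western diet range lay inside that of chow. The fold was 1.06, and its 95% interval of 0.91 to 1.23 is wide beside those of Chga and Chgb (edgeR adjusted p = 0.671). Islets also hold nerve fibres and Schwann cells, whose summed markers are given above.

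**Figure D2:**
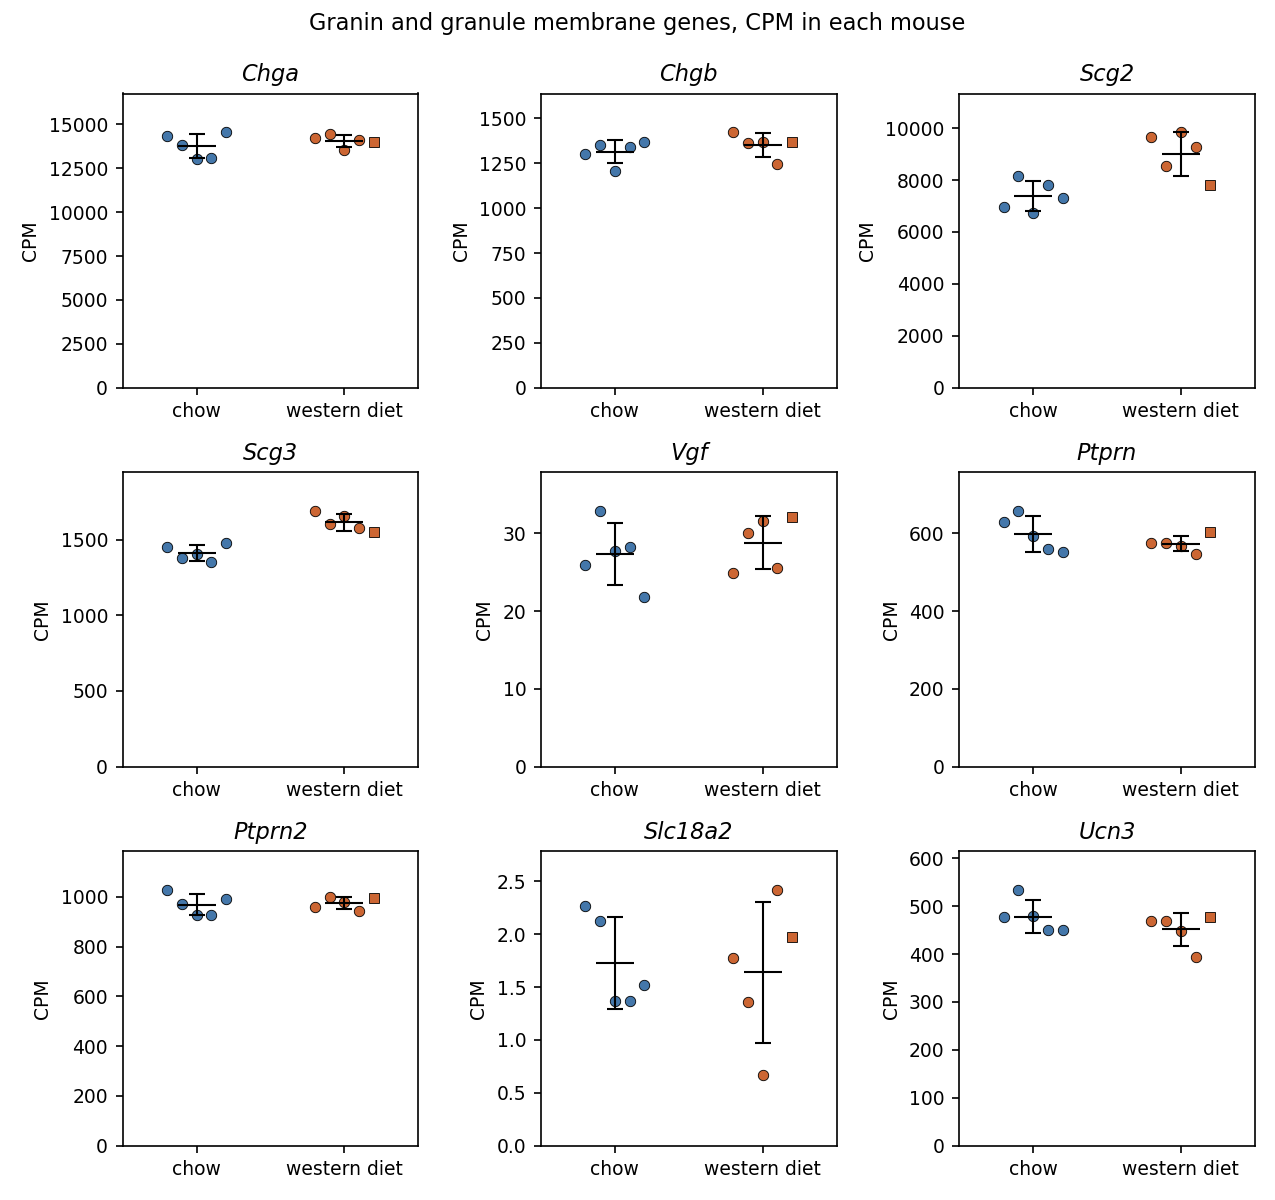
CPM of each gene in each mouse, by diet, on axes that start at 0; circles are mice of cages 3 and 4, the square is the western diet mouse of cage 2, and bars are mean and SD (n = 5 per diet). Scg3 separated the diets, Scg2 did so apart from the cage 2 mouse at 7802 CPM, and the other genes overlapped.

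The 3 membrane genes showed no called difference. Ptprn (ENSMUSG00000026204, chromosome 1, 75247027 to 75264502) encodes a phosphatase-like protein that spans the granule membrane and is an autoantigen of autoimmune diabetes. It was at 575, 576, 568 and 548 CPM in cage 4 mice 1, 2, 5 and 4, at 603 in the cage 2 mouse, and at 629, 658, 594, 561 and 551 CPM in chow mice 1 to 5. Chow mice 1 and 2 were the highest of all 10, and the diets overlapped. The fold was 0.96 (95% interval 0.89 to 1.04, edgeR adjusted p = 0.493).

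Ptprn2 (ENSMUSG00000056553, chromosome 12, 116485720 to 117276849) encodes phogrin, the paralog of the Ptprn product in the same membrane. Its fold was 1.01, with a 95% interval of 0.94 to 1.07 (edgeR adjusted p = 0.915). Means were 976 ± 24.5 against 969 ± 43.6 CPM, and the highest and the lowest mouse were both chow. Within a library there were 1.70 Ptprn2 reads for each Ptprn read on western diet and 1.62 on chow, as geometric means over the mice. The diets overlapped in this ratio (exact permutation test, two-sided p = 0.206). The antisense gene Gm5441 overlaps an exon of Ptprn2 with a mean of 38.1 reads per library, and Gm28294 overlaps an exon of Ptprn with 5.7.

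Slc18a2 (ENSMUSG00000025094, chromosome 19, 59260878 to 59296012) encodes a vesicular monoamine transporter, which loads dopamine and serotonin into granules. It was nearly absent, at 1.78, 1.36, 0.667 and 2.42 CPM in cage 4 mice 1, 2, 5 and 4, at 1.97 in the cage 2 mouse, and at 2.27, 2.13, 1.37, 1.37 and 1.52 CPM in chow mice 1 to 5. Both the highest and the lowest mouse were on western diet. With 11 to 47 reads per library, the fold of 0.95 had a 95% interval of 0.62 to 1.45 (edgeR adjusted p = 0.909), the widest of the 9 genes. The annotated antisense gene Gm29261 overlaps an exon of Slc18a2. A second vesicular monoamine transporter gene, Slc18a1, is in the list of other granule membrane genes and outside the rule for naming. Its level was higher than that of Slc18a2, at 18.2 ± 1.88 CPM on western diet and 15.8 ± 0.356 on chow (edgeR adjusted p = 0.115).

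Ucn3 (ENSMUSG00000044988, chromosome 13, 3940688 to 3945349) encodes urocortin 3, a peptide released with insulin that acts on the receptor CRHR2 of delta cells and marks mature beta cells in mice. It was at 469, 469, 449 and 393 CPM in cage 4 mice 1, 2, 5 and 4, at 477 in the cage 2 mouse, and at 478, 534, 479, 450.5 and 449.6 CPM in chow mice 1 to 5. All 5 western diet mice lay below the chow median, yet the ranges overlapped. The fold was 0.94 (95% interval 0.87 to 1.03, edgeR adjusted p = 0.394).

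**Figure D3:**
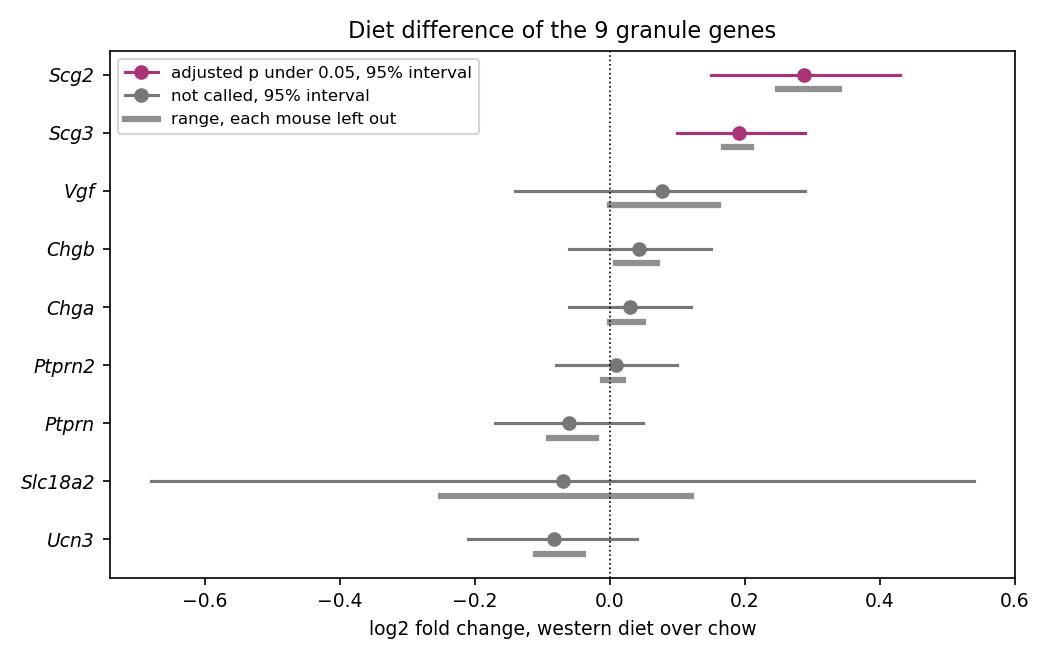
Log2 fold change of western diet over chow for each gene with its 95% interval from edgeR, and below it a grey bar for the range when each mouse was left out in turn. Scg2 (0.29) and Scg3 (0.19) were called, and Slc18a2 had the widest interval.

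How much the mice of a diet varied differed between members. On chow the coefficient of variation between mice was 3.68% for Scg3, 4.50% for Ptprn2, 4.83% for Chgb, 5.13% for Chga, 7.14% for Ucn3, 7.52% for Ptprn, 8.01% for Scg2, 14.7% for Vgf and 25% for Slc18a2. On western diet it ran from 2.36% for Chga to 40.4% for Slc18a2. Scg2 was thus the most variable of the 4 abundant granins on both diets, and chow mouse 3 held the lowest value of 4 members while chow mouse 2 held the highest of 3.

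Ratios within a library need no scaling between libraries and ask whether members moved unequally. Those printed here are geometric means over the 5 mice of a diet. For each Chga read there were 0.115 Scg3 reads on western diet and 0.103 on chow, without overlap (exact permutation test, two-sided p = 0.00794, adjusted over 9 ratios 0.0714). For Scg2 the ratio was 0.639 and 0.536, with overlap (exact permutation p = 0.0397, adjusted 0.179). With 5 mice against 5 the smallest exact p is 0.00794, so a single ratio among 9 cannot have an adjusted p below 0.0714, and Scg3 over Chga reached that floor. None of the 9 ratios passed the adjusted threshold. The ratios of Chgb, Vgf, Ptprn, Ptprn2, Slc18a2 and Ucn3 to Chga had exact permutation p from 0.167 to 0.825. The adjusted test could not have called the Scg3 ratio alone, and so it does not settle whether Scg3 moved apart from Chga.

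The counts of this and the following lists stand beside 5.27% of all genes tested called higher and 5.5% called lower. Nothing particular to a list is drawn from them. The other cargo of the granule showed 1 of 11 tested genes higher and 0 lower. Iapp, which encodes amylin, rose from 18724 ± 911 to 21355 ± 1219 CPM (log2 0.19 ± 0.05, adjusted p = 0.0193 by edgeR). Its call was lost without chow mouse 1 (0.0707) or mouse 3 (0.0611), and without western diet cage 4 mouse 1 (0.0502) or mouse 5 (0.0694). Pcsk1n, a granin-like protein that inhibits prohormone convertase, had a log2 fold change of 0.17 (edgeR adjusted p = 0.0612), and Ins1 of 0.11 (0.207). The neuropeptide gene Npy was low, at 0.293 to 2.26 CPM on western diet and 0.114 to 3.58 on chow. At an unadjusted p under 0.05 the list counted 2 higher and 0 lower, and DESeq2 gave 2 and 0. The count of genes called higher was 2 without chow mouse 2, and Npy was called lower without chow mouse 3 (edgeR adjusted p = 0.0230).

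Of 7 prohormone processing genes 1 rose and 0 fell. Furin, the convertase of the trans-Golgi network, rose from 87.1 ± 5.67 to 106 ± 5.35 CPM without overlap between the diets (log2 0.28 ± 0.05, adjusted p = 0.00389 by edgeR). The granule convertase gene Pcsk1 (-0.10, edgeR adjusted p = 0.293) and the carboxypeptidase genes Cpe (0.06, 0.389) and Cpd (-0.10, 0.145) were not called. At an unadjusted p under 0.05 the list counted 1 higher and 1 lower, and DESeq2 gave 1 and 0.

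Of 20 other genes of the granule membrane 1 rose and 2 fell. The small GTPase gene Rab37 fell by 0.38 ± 0.07 on the log2 scale (adjusted p = 0.00477 by edgeR), from 172 ± 13.3 to 131 ± 14.9 CPM. The zinc transporter gene Slc30a8 fell from 1289.8 ± 59.4 to 1069 ± 77.5 CPM (edgeR adjusted p = 0.00452), and the diets did not overlap for either gene. Rab3a, a GTPase of granule docking, rose from 99.4 ± 6.97 to 116 ± 4.84 CPM (edgeR adjusted p = 0.0147). Atp6ap2, an accessory subunit of the proton pump, was at a log2 fold change of 0.14 (0.0705) and was called without the cage 2 mouse (0.0234) and by DESeq2 (0.0356). The count of genes called higher was 2 without chow mouse 2 and 2 without that western diet mouse.

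Of 29 genes of granule biogenesis 5 rose and 0 fell, with a median log2 fold change of 0.07. Arfip2, a binding partner of ARF and RAC GTPases, rose from 83.7 ± 4.66 to 108 ± 6.88 CPM (log2 0.37 ± 0.05, adjusted p = 5.7e-04 by edgeR). Hid1, needed for the maturation of dense-core granules, rose from 166 ± 21.2 to 221 ± 25.1 CPM (log2 0.41 ± 0.09, adjusted p = 0.0160 by edgeR). Both were called with each mouse left out. The SNARE gene Vamp4 (0.21, edgeR adjusted p = 0.0387), the clathrin light chain gene Cltb (0.21, 0.0295) and, outside the rule for naming, the clathrin heavy chain gene Cltc (0.14, 0.0437) rose by less. The Vamp4 call held in 3 of 10 fits that left out a mouse, and the Cltb call in 5. The list's count of higher genes was 2 when chow mouse 1 or 3, or western diet mouse 1, 5 or 4 of cage 4, was left out, and 3 without chow mouse 5 or western diet cage 4 mouse 2. At an unadjusted p under 0.05 it was 10 higher and 0 lower, and DESeq2 gave 6 and 0.

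**Figure D4:**
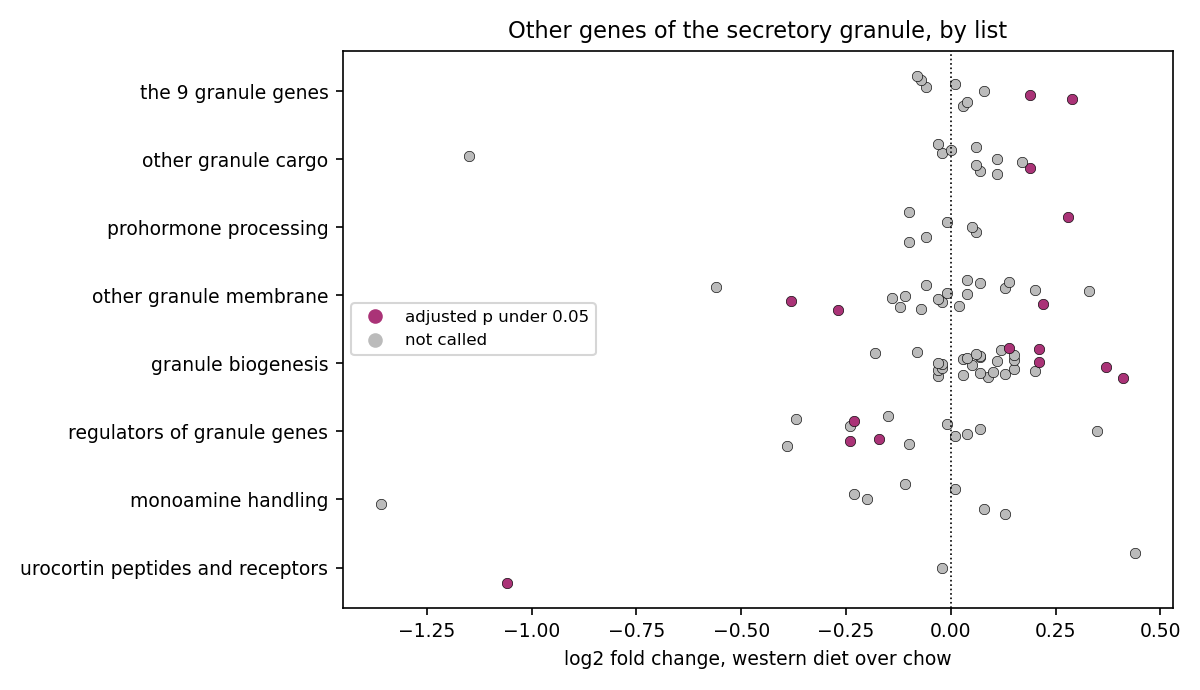
Log2 fold change of western diet over chow for each tested gene (points) of the 9 granule genes and of 7 lists, with called genes in purple. In the granule biogenesis list 5 of 29 genes were called higher, and in the list of regulators 3 of 13 were called lower. Over all genes tested 5.27% were called higher and 5.5% lower. Leaving out single mice lowered these 2 list counts to as few as 2 and 1.

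Of 13 regulators of granule genes 0 rose and 3 fell. The zinc finger factor gene Insm1 fell from 394 to 417 CPM under chow to 297 to 369.5 under western diet, with log2 -0.24 ± 0.06 (adjusted p = 0.0111 by edgeR). The homeobox genes Pax6 (-0.17, edgeR adjusted p = 0.0433) and Nkx2-2 (-0.23, 0.0425) fell as well. The Pax6 call held in 1 of 10 fits that left out a mouse, and that of Nkx2-2 in 3. Stat5b was at a log2 fold change of -0.15 (edgeR adjusted p = 0.0992) and was called lower without the cage 2 mouse (0.0440). The count of lower genes was 1 without any one of chow mice 1, 2 or 3 or western diet cage 4 mice 2, 5 or 4, and 1 gene was called higher without western diet cage 4 mouse 1. At an unadjusted p under 0.05 the list counted 1 higher and 4 lower, and DESeq2 gave 0 and 3.

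The partners of Slc18a2 and Ucn3 were mostly not called. Of 7 tested monoamine genes 0 rose and 0 fell by edgeR, with 0 higher and 2 lower at an unadjusted p under 0.05 and none by DESeq2 or limma-voom. Ddc, which makes dopamine and serotonin from their precursors, had means of 417 ± 10.5 against 394 ± 14.2 CPM (adjusted p = 0.252 by edgeR). The monoamine oxidase gene Maob was at a log2 fold change of -0.23 (edgeR adjusted p = 0.0827) and passed when the cage 2 mouse was left out (0.0125). Maoa, also a monoamine oxidase gene, was at -0.20 and was not called (edgeR adjusted p = 0.206). Tph2, a serotonin-synthesis enzyme, was below 2.5 CPM in every library and was called lower without chow mouse 1 (0.0277).

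Of 3 tested genes of the urocortin system 0 rose and 1 fell, and the unadjusted count, DESeq2 and limma-voom gave the same 0 and 1. The receptor gene Crhr1 fell from 2.65 ± 0.567 to 1.26 ± 0.396 CPM without overlap (log2 -1.06 ± 0.25, adjusted p = 0.0114 by edgeR). Crhr2, the receptor through which urocortin 3 acts on delta cells, was at 0.954 ± 0.313 and 0.968 ± 0.221 CPM (edgeR adjusted p = 0.980), and the binding protein gene Crhbp at 1.01 ± 0.153 and 0.730 ± 0.303 (0.410). All 3 were low in whole islets, and Sst of the delta cell stood at means of 2085 ± 119 against 2091 ± 200.1 CPM.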

How the data were processed

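Islet RNA of 10 mice was sequenced, and the authors deposited 1 table of raw read counts per gene, FPKM per gene and their own log2 fold changes and p-values, per the file headers. Per the submitters' processing notes, STAR 2.5, HTSeq 2 and DESeq2 and the builds mm10 and GRCm38 were involved, with no roles stated. Whether counting used strand is not stated in the labels. A further 10 per-sample columns were not used. Counts were fitted with edgeR 4.0.16 (R 4.3.3): filterByExpr with a minimum count of 10, TMM factors, robust quasi-likelihood test of diet with no covariate, Benjamini-Hochberg adjustment over 15104 genes, threshold 0.05. SE is the log2 fold change over the root of F, and 95% intervals use the t distribution of that fit. CPM use the TMM factors. The spread is between mice, 1 library each.

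The members and gene lists were chosen with earlier results of these data known. All 9 members and, from each of 7 lists of 98 entries, up to 4 tested genes with the smallest p (those of at least 1 CPM first) were named. Crh and Ucn were not matched in the table. On simulated counts for western diet against chow (14881 genes tested), 23 of 50 genes changed 1.25-fold and 44 of 50 changed 1.5-fold were recovered. The changed genes were drawn from those with a mean of at least 5 CPM. These rates therefore do not cover Slc18a2 or other genes below that level. Alternatives tried: DESeq2 1.42.0, limma-voom (limma 3.58.1), factors by RLE or upper quartile, all genes unfiltered, a mean of at least 5 CPM, a block for mouse number, and each mouse left out. The promoter sequences are RefSeq's (GRCm38.p6).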

Additional observations from a re-analysis of the deposited data

How the results depend on the processing

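The 9 genes were refitted under 7 other settings and without each mouse in turn (Slc18a2 fell below the 5 CPM minimum). Scg2 stayed at log2 fold changes of 0.25 to 0.34 and Scg3 at 0.17 to 0.21, both called except with the replicate block. The labels number the mice and state no pairing between the diets. The 5 same-numbered couples across the diets had correlations of their deviations from -0.129 to 0.048, within the -0.206 to 0.224 of other couples. So few couples cannot settle whether the numbers pair the mice. With mouse number as a replicate block (4 residual degrees of freedom, chow mouse 3 alone in its block) 0 members were called higher, with Scg2 at 0.27 (edgeR adjusted p = 0.0681) and Scg3 at 0.19 (0.0623), and genes called over the table numbered 342 higher and 499 lower, against 796 and 831. Under that block other cargo counted 0 higher and 1 lower, other membrane 0 higher, biogenesis 2 higher, regulators 1 higher and 1 lower, and monoamine handling 1 lower; the cause was not tested.

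Ptprn2 lay near 0 and turned negative at a minimum of 5 CPM (-0.0073), with the replicate block (-0.0096), with upper quartile factors (-0.0026) and without chow mouse 3 (-0.0127) or mouse 4 (-0.0114); without 1 mouse it reached 0.0249. Slc18a2 turned positive without chow mouse 1 (0.0368), chow mouse 2 (0.0159) or western diet cage 4 mouse 5 (0.1190), and its lowest value without 1 mouse was -0.2470. Neither gene was called in any fit. Crhr2 turned positive with the replicate block (0.1171) and without chow mouse 2 (0.0406) or 3 (0.0835) or western diet cage 4 mouse 1 (0.0268), 5 (0.1013) or 4 (0.0320), with a lowest value of -0.1926. The ratio to Chga turned negative for Chgb without western diet cage 4 mouse 1 (-0.0031) or 5 (-0.0060) or chow mouse 1 (-0.0069; highest 0.0426) and for Vgf without chow mouse 5 (-0.0507; highest 0.1167), and positive for Slc18a2 without western diet cage 4 mouse 5 (0.0795; lowest -0.3701).

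DESeq2 called 2 genes higher in the cargo and in the membrane list, and no low count filter gave 2 in the cargo list. At a minimum of 5 CPM the urocortin list had 0 lower, since its genes were no longer tested. Leaving out each mouse gave 0 to 2 higher and 0 to 1 lower for cargo, 1 to 2 higher for membrane, 2 to 5 higher for biogenesis, 0 to 1 higher and 1 to 3 lower for regulators and 0 to 1 lower for monoamine handling. Slc18a2 had 11 to 47 reads per library, the fewest of the members, and Vgf 474 to 766; the part of depth in their spread was not tested.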
